A study of Mus musculus with 4 samples.

Results

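XN4 is one of 4 mouse lines that the study derived from epiblast stem cells (EpiSCs) and labelled as neural stem cell (NSC) lines. The XN4 cells described here are all 3927 cells that the authors' normalized XN4 table holds, out of 15255 cells in the normalized tables of the 4 lines. They were set against 3905 cells of XN1, 3975 cells of KN1, and 3448 cells of CN4, and all genes were compared. The study based this label on further measures. It detected neurons, oligodendrocytes, and astrocytes by immunofluorescence after XN4 cells were differentiated. Its microarrays had *Sox2* and *Zeb2* expressed in all its NSC lines, with *Sox3* and *Pax6* low in XN4. In these single-cell data, the label of neural stem cells did not match much of what the XN4 cells contained. Nearly all of them carried *Col3a1*, which encodes the chain of type III collagen. *Fabp7* and *Olig2*, known from some neural progenitors and present in the other 3 lines, had no read in any XN4 cell. Of 14 neural progenitor markers compared, 9 were at least 4-fold lower in XN4 than in each other line, 0 higher, and 5 neither. Among these 5, *Zeb2* was read in 2237 XN4 cells. The cells are therefore called XN4 cells here.

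EpiSCs represent the pluripotent epiblast of the embryo after implantation, and in serum-free medium with EGF and FGF2 they can give rise to self-renewing neural progenitors. Such progenitors are known for the transcription factors *Sox2* and *Pax6*, the intermediate filament nestin, and the fatty acid-binding protein *Fabp7*. Fibrillar collagens, small proteoglycans such as decorin, and the enzymes that trim and crosslink collagen are typical products of mesenchymal cells, which surround the neural tube in the embryo and build connective tissue in the adult.

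All 4 lines came from EpiSCs of the 129/Sv strain and grew with EGF and FGF2, both at 10 ng/ml. XN4 and XN1 were in addition kept in 10 µM XAV939, a tankyrase inhibitor that lowers Wnt signaling, CN4 was kept in 2 µM CHIR99021, a GSK3 inhibitor that raises it, and KN1 received neither. The XAV939 of XN4 was bought from supplier B and that of XN1 from supplier A. The study saw crystals form at 10 µM with supplier A, which in its view lowered the dose that acted on XN1. XN4 and CN4 were derived in the same series of cultures, and XN1 and KN1 in another series. In the study's growth tests, XN4 and CN4 preferred gelatin, and XN1 and KN1 laminin. Each line stands for 1 derivation and was measured once, on a BD Rhapsody cartridge with 1 library, so that a difference between lines cannot be told apart from one between libraries, and no test between lines was possible. Values are given with 95% intervals. These cover only the error of counting, and a read does not stand for 1 molecule.

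Depth differed among the libraries. The tables held 41616751 reads of XN4, 19284232 of XN1, 27563145 of KN1, and 22957672 of CN4 after mitochondrial and ribosomal protein genes had been left out. The median XN4 cell had 7818 reads and 2487 genes. In the other lines, the medians were 4639 to 6574.5 reads, with 2259 genes in XN1, 2826.5 in CN4, and 833 in KN1. KN1 thus stood apart by its few genes per cell, and also by *Malat1*, which took 3.20% of its reads against 0.328% to 1.42% in the other lines. Where the count of a gene list changed without KN1, both counts are therefore given. After each cell was thinned to 3000 reads, which left out 465 XN4 cells with fewer reads, the medians were 1580 genes for XN4, 741 for KN1, and 1730 and 1767 for XN1 and CN4. The share of mitochondrial reads in the tables of all reads was 23.5% in XN4, above the 15.2% of XN1 and the 15.9% of CN4. XN4 shared 17, 19, and 14 cell barcodes with XN1, KN1, and CN4, respectively, and the other pairs of lines shared 17 to 21.

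Levels are given as the reads of a gene summed over the cells of a line, per 1000000 reads of that line (RPM), and were compared only between lines for the same gene. The normalized tables list no gene that was found in very few cells. For XN4, XN1, and CN4, such genes were read from the tables of all reads of the same cells, where they had reads in at most 9 cells, apart from 33 XN4 genes at the end of the alphabet. For KN1, they are called not listed. A gene not listed can have more than 3 reads, as the most reads of such a gene were 58 in XN4, 38 in XN1, and 124 in CN4. For genes not listed in KN1, the ratio to the highest other line is thus known only against XN1 and CN4. Where a line had 3 reads or fewer of a gene, the number of reads is given in place of RPM.

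The 5 marker genes of XN4 were far above the other lines. *Col3a1* had 5464 RPM in XN4, against 24.1 in CN4, 1.85 in KN1, and 1.5 in XN1. It was 226 times as high in XN4 as in CN4, the line with the next highest level, where 10 cells held 95.8% of its reads. The 95% interval of *Col3a1* was 5441 to 5486 RPM in XN4 and 22.2 to 26.2 RPM in CN4. These intervals take reads as independent of each other, and without those 10 cells the CN4 level was 1.00 RPM. *Dcn*, the gene of the proteoglycan decorin that binds collagen fibrils, had 1222 RPM in XN4, against 5.36 in CN4, 1.66 in XN1, and 0.617 in KN1, a ratio of 228 to the highest other line. *Pcolce* encodes an enhancer of the protease that trims procollagen, and it had 628 RPM in XN4, against 6.75 in CN4, 13.4 in KN1, and 33.8 in XN1. It was the marker with the smallest ratio, 18.6, and XN1 was the next highest line. *Meox1*, a homeobox factor of the somites, had 122 RPM in XN4, against 0.218 in CN4 and 3.06 in XN1 (not listed in KN1), with a ratio of 40.0. *Ccl11*, the eosinophil-attracting chemokine eotaxin, had 453 RPM in XN4, against 0.740 in CN4 and 3 reads in XN1 (not listed in KN1), with a ratio of 611.

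The markers also separated the lines by the share of cells with at least 1 read. *Col3a1* was found in 97.8% of XN4 cells (97.2% to 98.2%), and in 0.154% of XN1, 1.23% of KN1, and 0.812% of CN4 cells. *Dcn* was found in 87.2% of XN4 cells (86.2% to 88.3%) and in 0.428% to 1.04% of the cells of the other lines. *Pcolce* was found in 83.6% of XN4 cells (82.4% to 84.8%) against 12.0% of XN1 cells. XN4 also had the highest shares when each cell was thinned to 3000 reads, which matches reads and not molecules. They were then 97.4% for *Col3a1*, 81.9% for *Dcn*, and 73.5% for *Pcolce*, and at most 7.80% in another line. *Meox1* and *Ccl11* were found in fewer XN4 cells, 31.6% (20.1% after thinning) and 64.8% (49.5% after thinning), respectively. In XN1 and CN4, *Meox1* was found in 1.23% and 0.145% of cells, and *Ccl11* in 0.0512% and 0.174%.

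In the GRCm38 genome, with positions from release M21 of the GENCODE annotation, *Col3a1* lies on chromosome 1 from 45311538 to 45349706 (plus strand), overlapped by *Gm47302* on the same strand, and *Dcn* on chromosome 10 from 97479609 to 97518143 (plus strand). *Pcolce* lies on chromosome 5 from 137605103 to 137613784 (minus strand) and is overlapped by *Fbxo24* on the same strand, so that reads of these pairs may not be fully separated. *Meox1* lies on chromosome 11 from 101877510 to 101894374 (minus strand) and *Ccl11* on chromosome 11 from 82057823 to 82062955 (plus strand). Both are on the same chromosome, but far apart.

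Of 39 genes (the markers and the genes highest or lowest in XN4 relative to the other lines), 26 had a promoter window in the RefSeq table, and 5 of these had a single window whose start lay within 20 bases of a GENCODE start. These 5 are shown, to let the DNA before genes that were high in XN4 be seen beside that of a gene that was low. Each sequence gives the 250 bases before the start in RefSeq's GRCm38.p6, read 5′ to 3′ on the strand of the gene. Capitals mark TATAAA, the core of the TATA box, and CCAAT, the core of the CCAAT box, on either strand. *Col3a1*, *Dpep1* (a dipeptidase of the cell surface), *Aspn* (the matrix proteoglycan asporin), and *Apod* (the lipid carrier apolipoprotein D) were high in XN4, and *Acsbg1* (an acyl-CoA synthetase of brain and glia) was low. The windows are chr1:45311288-45311537 (plus strand), chr8:123185985-123186234 (plus), chr13:49544193-49544442 (plus), chr16:31314809-31315058 (minus), and chr9:54661886-54662135 (minus).
Col3a1: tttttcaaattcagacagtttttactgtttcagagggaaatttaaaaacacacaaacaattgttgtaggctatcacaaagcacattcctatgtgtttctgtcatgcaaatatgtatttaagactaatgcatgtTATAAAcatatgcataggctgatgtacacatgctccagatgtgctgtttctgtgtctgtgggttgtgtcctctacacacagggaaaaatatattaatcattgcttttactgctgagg
Dpep1: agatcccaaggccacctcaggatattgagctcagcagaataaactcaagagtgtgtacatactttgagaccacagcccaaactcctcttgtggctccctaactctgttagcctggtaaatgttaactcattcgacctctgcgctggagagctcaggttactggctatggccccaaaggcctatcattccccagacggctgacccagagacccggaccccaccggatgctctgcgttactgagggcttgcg
Aspn: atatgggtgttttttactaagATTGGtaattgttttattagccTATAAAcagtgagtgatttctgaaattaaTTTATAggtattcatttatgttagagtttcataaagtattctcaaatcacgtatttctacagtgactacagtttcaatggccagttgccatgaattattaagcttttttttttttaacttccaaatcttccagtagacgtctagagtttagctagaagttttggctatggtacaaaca
Apod: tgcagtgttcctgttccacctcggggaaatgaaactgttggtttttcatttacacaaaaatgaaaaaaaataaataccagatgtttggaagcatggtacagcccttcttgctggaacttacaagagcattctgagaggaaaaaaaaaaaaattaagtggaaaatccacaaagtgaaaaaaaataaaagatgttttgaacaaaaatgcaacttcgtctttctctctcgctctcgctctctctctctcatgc
Acsbg1: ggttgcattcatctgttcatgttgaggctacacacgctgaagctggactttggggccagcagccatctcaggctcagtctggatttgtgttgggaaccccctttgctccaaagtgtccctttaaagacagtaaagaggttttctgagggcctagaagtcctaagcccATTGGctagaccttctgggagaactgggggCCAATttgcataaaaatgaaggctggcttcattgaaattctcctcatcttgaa
TATAAA was found 117 bases before the start of *Col3a1* and 207 and 178 bases before that of *Aspn*, which also had CCAAT at 229. *Acsbg1* had CCAAT at 53 and 83, and *Dpep1* and *Apod* had neither. Over 32851 promoter windows, 12.4% hold TATAAA and 33.8% hold CCAAT. The *Col3a1* window has no CpG and 35.2% G and C, and the *Dpep1* window has 7 CpG and 53.6%. A match is a description of the letters and not a binding site, and the lack of one says nothing of the factor.

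Across all genes, 11430 had a mean of at least 5 RPM over the 4 lines. Of these, 430, or 3.76%, were at least 4 times as high in XN4 as in the highest of the other lines, and are called higher in XN4. A further 569 genes, or 4.98%, were at most 1/4 of the lowest of the other lines, and are called lower in XN4. These are the backgrounds against which the counts below are read. A gene read almost only in XN4 could pass the limit of 5 RPM through XN4 alone, and was then likely to be higher. In every list below, the count of higher members is not independent of this limit, above all in short lists. By the same rule, 81 genes were higher and 68 lower in XN1, 357 and 356 in KN1, and 51 and 27 in CN4. XN4 thus had the most such genes of the 4 lines in both directions. Without KN1 as a reference, 548 genes were higher and 687 lower in XN4. Of the 430 higher genes, 153 were not listed in KN1, as were 282 of the 11430 genes compared.

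The higher genes took 8.52% of all XN4 reads, and 0.303% to 0.515% of the reads of the other lines. The lower genes took 0.242% of XN4 reads, and 5.65%, 10.5%, and 6.39% of the reads of the other lines. Against single lines, 746 genes (6.53%) were at least 4 times as high in XN4 as in XN1, which was also kept in XAV939, and 866 (7.58%) at most 1/4. For CN4, which came from the same derivation series, the counts were 826 (7.23%) and 908 (7.94%). For KN1 they were 1137 (9.95%) and 1200 (10.5%). The 3 comparisons share the XN4 library. The middle gene hardly moved, as the median log2 difference of XN4 from XN1 was 0.08, from KN1 0.10, and from CN4 -0.03. *Gypc* and *Shc2*, both at 4.01-fold, were just inside the limit for higher genes, and *Steap2* at 3.997 and *Itm2a* at 3.99 just outside. For lower genes, *Tmem117* at 4.02 and *Ddah1* at 4.03 were just inside, and *Slc25a25* and *Fyn*, both at 3.98, just outside.

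**Figure D1:**
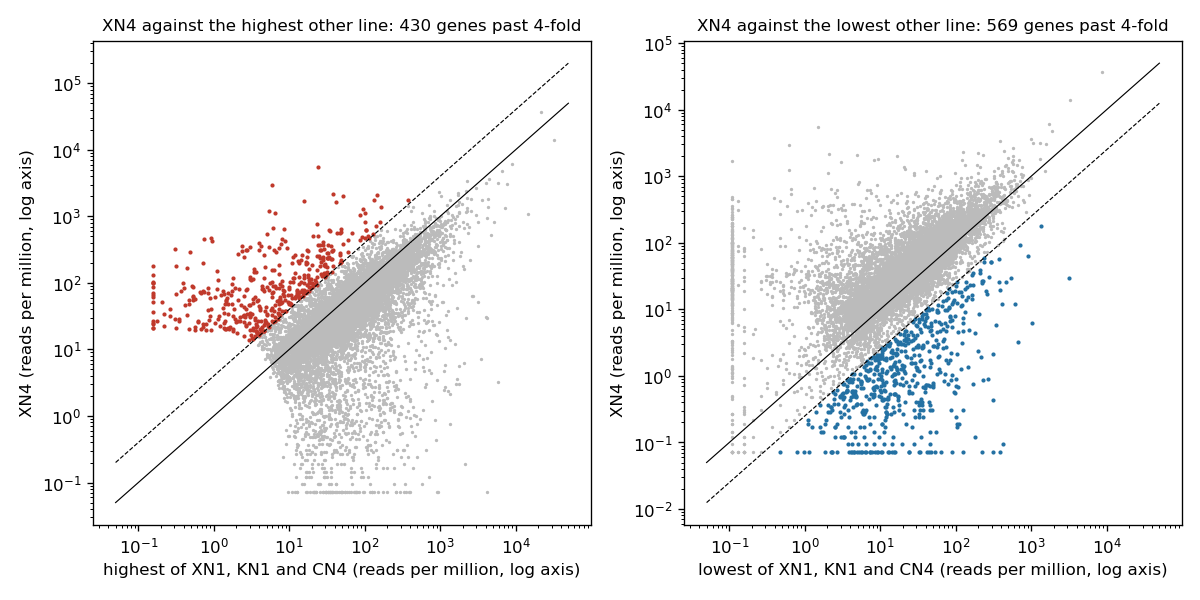
RPM in XN4 (vertical log axis) of the 11430 genes compared, against the highest (left) and the lowest (right) of XN1, KN1, and CN4 (horizontal log axes). The solid line marks equal levels and the dashed line a 4-fold difference, values under 3 reads are drawn at 3 reads, and the 430 higher genes (red) and 569 lower genes (blue) lie beyond the dashed lines.

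The 20 genes with the largest ratio to the highest other line, among those found in at least 10% of XN4 cells, had ratios of 254 to 1159 (values under 3 reads, or not listed, were set to 3 reads). Of them, 16 were not listed in KN1. Several make or shape extracellular matrix. *Mgp*, the matrix Gla protein that inhibits calcification, had 179 RPM in XN4, against 0.174 in CN4 and 0.311 in XN1 (not listed in KN1). *Aspn*, a proteoglycan related to decorin, had 87.5 RPM in XN4, against 1 read in CN4 and 0 reads in XN1 (not listed in KN1). *Fap*, a serine protease of activated fibroblasts, had 467 RPM in XN4, against 0.392 in CN4, 0.415 in XN1, and 0.907 in KN1, so that XN4 had 515 times the level of KN1. *Fap* was found in 76.0% of XN4 cells and in at most 0.428% of the cells of another line.

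*Apod* had the most reads of these 20 genes, 2984 RPM in XN4, against 5.92 in CN4, 0.617 in KN1, and 0.674 in XN1. It was found in 89.2% of XN4 cells (88.1% to 90.1%; 82.5% after thinning), with a ratio of 504 to CN4. Other genes of this group encode enzymes and transporters. *Dpep1*, the dipeptidase, had 180.2 RPM in XN4, against 3 reads in CN4 and 0 reads in XN1 (not listed in KN1). Its gene is overlapped by *Gm20388* on the same strand. *Slc16a5*, of the monocarboxylate transporter family, had 133 RPM in XN4, against 1 read in CN4 and 0 reads in XN1 (not listed in KN1). *Inmt*, a methyltransferase of small indoles and amines, had 98.3 RPM in XN4, against 0 reads in CN4 and 0 reads in XN1 (not listed in KN1). The *Inmt* level was at least 632-fold higher than 3 reads of XN1 would give. *Hp*, the hemoglobin-binding haptoglobin, had 62.2 RPM in XN4, against 0 reads in CN4 and 0 reads in XN1 (not listed in KN1). These genes differed in how widely they were found, from 15.8% of XN4 cells for *Hp* to 46.3% for *Dpep1*, and in the other lines they were read in few cells or none.

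Some of the 20 genes are known from innate immunity, a grouping made after the ranking, for which no list of its own was counted. *Il1rn*, the interleukin 1 receptor antagonist, had 102 RPM in XN4, against 2 reads in CN4 and 0 reads in XN1 (not listed in KN1). *Ifitm1*, an interferon-induced membrane protein, had 287 RPM in XN4, against 0.479 in CN4 and 2 reads in XN1 (not listed in KN1). Another 4 were neighbors in the interferon-inducible p200 family, whose proteins bind DNA, on the minus strand of chromosome 1. *Ifi207* (from 173723427 to 173741747) had 70.0 RPM in XN4, against 1 read in CN4 and 0 reads in XN1 (not listed in KN1). *Ifi204* (from 173747293 to 173766943) had 101 RPM in XN4, against 1 read in CN4 and 2 reads in XN1 (not listed in KN1). *Mndal* (from 173849126 to 173942491) had 165 RPM in XN4, against 0.305 in CN4, 3 reads in XN1, and 0.435 RPM in KN1. *Ifi203* (from 173920407 to 173942672) had 196 RPM in XN4, against 0.218 in CN4 and 0.726 in XN1 (not listed in KN1). *Mndal* and *Ifi203* overlap on the same strand, and family members are alike in sequence, so that the split of reads among them is uncertain, while each of the 4 was higher in XN4.

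The others of the 20 belong to no common group. *Hpca*, the calcium sensor hippocalcin known from neurons, had 320.0 RPM in XN4, against 0.305 in CN4 and 1 read in XN1 (not listed in KN1), and it was found in 52.2% of XN4 cells. It is overlapped by *Tmem54* on the opposite strand. *Magel2*, an imprinted gene, had 99.4 RPM in XN4, against 0.392 in CN4 and 0 reads in XN1 (not listed in KN1). The unnamed gene *5430421F17Rik* had 65.5 RPM in XN4, against 1 read in CN4 and 0 reads in XN1 (not listed in KN1). The gene model *Gm35419* had 51.6 RPM in XN4, against 0 reads in CN4 and 0 reads in XN1 (not listed in KN1). At 1 library per line, there is no replicate against which these differences could be set, and their counting intervals did not overlap with those of the lines that listed them.

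**Figure D2:**
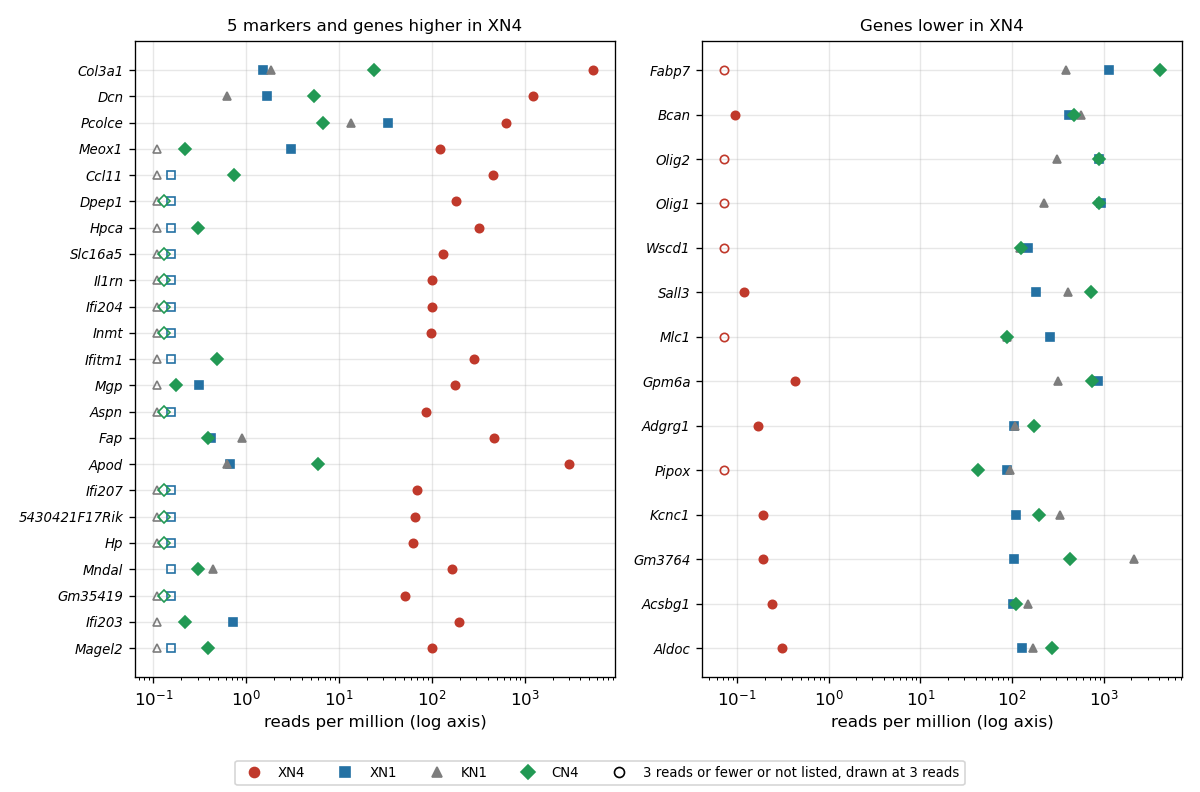
RPM (log axes) of the 5 markers and the genes highest in XN4 relative to the other lines (left) and of the genes lowest in XN4 (right), with a symbol for each line and open symbols for 3 reads or fewer or a gene not listed, drawn at 3 reads. On the left, XN4 (red) lies to the right of each other line, and on the right it lies to their left.

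Of the genes lower in XN4, 15 stood out by the ratio of the lowest other line to XN4 among those found in at least 10% of the cells of each other line. They had ratios of 406 to 5350.0, with XN4 set to 3 reads where it had fewer. *Fabp7*, the fatty acid-binding protein of radial glia on chromosome 10 from 57784881 to 57788450 (plus strand), had 0 reads in XN4, against 4115 RPM in CN4, 1136 in XN1, and 386 in KN1. It was found in 0 of 3927 XN4 cells, which allows a share of cells with a read of up to 0.0764% (taking 3 cells as the limit that a count of 0 allows), and in 84.6% of XN1, 29.0% of KN1, and 98.3% of CN4 cells. The level of KN1, the lowest of the other lines, is at least 5350.0-fold above what 3 reads of XN4 would give. *Olig2*, a basic helix-loop-helix (bHLH) factor of ventral neural progenitors and oligodendrocytes, had 0 reads in XN4, against 895 RPM in CN4, 310.4 in KN1, and 889.6 in XN1. *Olig1*, its neighbor on chromosome 16, had 0 reads in XN4, against 891 RPM in CN4, 928 in XN1, and 223 in KN1. Both were absent from the reads of all XN4 cells in the normalized table and were found in 25.7% to 88.4% of the cells of the other lines for *Olig1* and in 27.2% to 86.7% for *Olig2*.

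Other lower genes are also known from neural progenitors and glia. *Bcan*, the brain-specific proteoglycan brevican, had 0.0961 RPM in XN4, against 473 in CN4, 569.6 in KN1, and 417 in XN1. *Gpm6a*, a neural membrane glycoprotein, had 0.433 RPM in XN4, against 749 in CN4, 874 in XN1, and 316 in KN1. The astrocyte gene *Mlc1* had 1 read in XN4, against 88.0 RPM in CN4, 89.0 in KN1, and 259.8 in XN1. *Aldoc*, the brain form of aldolase, had 0.312 RPM in XN4, against 269.6 in CN4, 127 in XN1, and 169 in KN1. *Adgrg1*, an adhesion receptor of neural progenitors, had 0.168 RPM in XN4, against 174 in CN4, 107 in KN1, and 104 in XN1. For each of these 5 genes, XN4 had 18 reads or fewer among 41616751, and the other lines were at 88.0 RPM or above.

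*Sall3*, a zinc finger factor of the neural tube, had 0.120 RPM in XN4, against 721 in CN4, 180.4 in XN1, and 403 in KN1. *Acsbg1* had 0.240 RPM in XN4, against 109 in CN4, 149 in KN1, and 102 in XN1. The potassium channel gene *Kcnc1* had 0.192 RPM in XN4, against 194 in CN4, 110.0 in XN1, and 329 in KN1. The peroxisomal oxidase gene *Pipox* had 2 reads in XN4, against 41.9 RPM in CN4, 93.6 in KN1, and 87.5 in XN1. *Wscd1* had 0 reads in XN4, against 125 RPM in CN4, 149.7 in XN1, and 123 in KN1. The transcript *Gm3764*, whose gene overlaps that of the microRNA *Mir9-1* on the same strand, had 0.192 RPM in XN4, against 426 in CN4, 2132 in KN1, and 105 in XN1, with more reads in KN1 than in the other lines. Each of the other lines, KN1 included, had at least 406 times the XN4 level for each of the 15 genes at the full depth, with XN4 set to 3 reads where it had fewer.

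The 5 markers are themselves part of the fibroblast list, so that its count is not separate support for them. Of 14 fibroblast markers compared, 10 were higher and 2 lower in XN4, with a median log2 difference of 8.32 from the middle of the other lines, against 0.04 for all genes compared. Without the 5 markers, 5 of 9 were higher and 2 lower, with a median of 5.76. Of these 5, *Fap*, *Lum*, and *Postn* reached the limit of 5 RPM only through XN4. *Fap* is also among the genes picked above by their ratio. The count and median without the markers are thus partly set by that limit and choice. In these counts and medians, a gene not listed in KN1 was set to 3 reads there. Beside the 5 markers and *Fap*, the list held *Pdgfra*, *Lum*, *Postn*, and *Col1a1* as higher members. *Pdgfra*, the PDGF receptor of mesenchymal cells, had 246 RPM in XN4, against 4.53 in CN4 and 33.2 in XN1 (not listed in KN1). *Lum*, the proteoglycan lumican, had 114 RPM in XN4, against 3.27 in CN4 and 0.311 in XN1 (not listed in KN1). *Postn*, the matricellular protein periostin, had 115 RPM in XN4, against 3.01 in CN4 and 0.415 in XN1 (not listed in KN1). Among the lines that listed them, XN4 was highest for each, with XN1 or CN4 next. Not all fibroblast genes followed. *Fbln2*, the matrix protein fibulin 2, had 17.0 RPM in XN4, against 263 in CN4, 454 in KN1, and 869 in XN1. *Thy1*, a surface glycoprotein of fibroblasts and neurons, had 0.336 RPM in XN4, against 5.14 in CN4, 73.6 in XN1, and 2.21 in KN1. *Col1a1*, the main chain of type I collagen, had 356 RPM in XN4, against 35.4 in CN4 and 0.622 in XN1 (not listed in KN1), but was found in only 23.4% of XN4 cells. Its partner chain *Col1a2* had 132 RPM in XN4, against 24.3 in CN4 and 76.7 in XN1 (not listed in KN1) and was not past 4-fold. *Fbln1* had 70.6 RPM in XN4, against 67.3 in CN4, 26.7 in KN1, and 33.8 in XN1 and was not either. *Mfap5* was not listed in any line.

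Of 14 neural progenitor markers, 9 were lower and 0 higher, with a median log2 difference of -7.27. *Sox2*, needed for neural progenitor maintenance, had 1.25 RPM in XN4, against 584 in CN4, 305 in XN1, and 117 in KN1, and was found in 0.560% of XN4 cells. *Pax6*, a homeobox factor of the neural tube, had 0.408 RPM in XN4, against 45.9 in CN4, 44.8 in KN1, and 45.6 in XN1. *Nes*, the gene of nestin, was lower but not absent, with 25.4 RPM in XN4, against 513 in CN4, 372 in XN1, and 655 in KN1. *Sox3* had 0 reads in XN4, against 195 RPM in CN4, 53.3 in KN1, and 95.9 in XN1. *Hes5*, a target of Notch signaling, had 0 reads in XN4, against 77.8 RPM in CN4, 10.3 in XN1, and 56.2 in KN1. *Ptprz1*, a receptor phosphatase of glia, had 6.18 RPM in XN4, against 1320.0 in CN4, 2057 in KN1, and 1024 in XN1. XN4 was below each other line for all 9, and the levels did not overlap. Of the 5 others, *Notch1* had 52.6 RPM in XN4, against 426 in CN4, 208 in XN1, and 268 in KN1 and was lower when the lines were scaled by the median gene. *Msi1*, an RNA-binding protein of progenitors, had 36.0 RPM in XN4, against 124 in CN4, 56.7 in KN1, and 71.5 in XN1. *Prom1* had 20.8 RPM in XN4, against 13.2 in CN4, 24.0 in XN1, and 14.8 in KN1. The zinc finger factor *Zeb2*, made in both neural and mesenchymal cells, had 247 RPM in XN4, against 135 in CN4, 292 in KN1, and 107 in XN1, so that XN4 lay within the range of the others. *Sox1* had 0.0961 RPM in XN4, against 68.1 in CN4, 1 read in XN1, and 2.50 RPM in KN1.

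Of 9 astrocyte and radial glia markers, 3 were lower and 0 higher with a median log2 difference of -4.56, and 7 were lower without KN1. *Slc1a3*, the glutamate transporter GLAST, had 63.7 RPM in XN4, against 2551 in CN4, 2724 in KN1, and 922 in XN1. *Slc1a2* had 1.59 RPM in XN4, against 227 in CN4, 126 in XN1, and 9.58 in KN1. *Sox9*, shared by glia and skeletal progenitors, had 168 RPM in XN4, against 355 in CN4, 171 in KN1, and 526 in XN1. *Gja1*, the gap junction protein connexin 43, had 279 RPM in XN4, against 202 in CN4, 94.2 in XN1, and 55.2 in KN1. Neither was past 4-fold from all the other lines. Of 4 oligodendrocyte precursor markers, only *Olig1* was lower, with a median log2 difference of -2.60. Of 6 neuron markers, 3 were lower, with a median log2 difference of -5.50. *Map2*, of a microtubule-associated protein, had 12.0 RPM in XN4, against 605 in CN4, 1588 in KN1, and 735 in XN1. *Snap25*, of the synaptic release machinery, had 0.457 RPM in XN4, against 29.2 in CN4, 12.3 in XN1, and 77.2 in KN1. *Dcx*, of young neurons, had 0.192 RPM in XN4, against 12.2 in CN4, 1.09 in KN1, and 27.6 in XN1. No member of these 3 lists was higher in XN4.

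Markers of other cell types were compared next, most of which had too few reads to be called. Of 2 neural crest markers compared, *Snai2* was higher, with 60.5 RPM in XN4, against 1.05 in CN4 and 0 reads in XN1 (not listed in KN1), while *Tfap2a*, *Tfap2b*, and *Ngfr* were each at 0.985 RPM or less in XN4, and *Foxd3* was not listed in any line. Of 4 mural cell and smooth muscle markers, *Pdgfrb* and *Abcc9* were higher, with a median log2 difference of 2.75. *Pdgfrb*, the other PDGF receptor, had 72.6 RPM in XN4, against 0.740 in CN4 and 3 reads in XN1 (not listed in KN1). *Abcc9*, a potassium channel subunit, had 24.2 RPM in XN4, against 0.348 in CN4, 0.519 in XN1, and 0.726 in KN1. The smooth muscle genes *Acta2* (5.0 RPM in XN4, against 0.218 in CN4, 10.2 in KN1, and 6.59 in XN1) and *Tagln* (0.384 RPM in XN4) were low in all lines. The only endothelial marker compared, *Emcn*, was higher, with 311 RPM in XN4, against 2.05 in CN4, 6.27 in XN1, and 2.25 in KN1, and was found in 63.0% of XN4 cells, while the defining endothelial genes *Pecam1*, *Cdh5*, and *Kdr* were at 0.937 RPM, 2.43 RPM, and 0.264 RPM in XN4. Of the blood cell and macrophage markers, only *Cd68* was frequent enough to compare and was not past 4-fold, and *Ptprc*, which marks white blood cells, was at 0.264 RPM in XN4. The epithelial genes *Epcam* and *Cdh1* were at 0.312 RPM and 0.481 RPM, and no member of that list could be compared. Of the epiblast markers, *Pou5f1* was at 0.433 RPM, *Nanog* was not listed in any line, and *Dnmt3b*, the only one compared, was not past 4-fold. Of 3 skeleton, fat, and muscle lineage markers, *Pparg*, a nuclear receptor of fat cells, was higher with 16.4 RPM in XN4, against 0.523 in CN4, 3.16 in KN1, and 0.674 in XN1. *Runx2*, the bone factor, had 31.9 RPM in XN4, against 5.49 in CN4, 0.570 in XN1, and 24.3 in KN1 and was higher without KN1, and *Sp7*, *Myod1*, *Myog*, and *Adipoq* were not listed in any line.

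Most of the collagen genes compared were higher in XN4. Of 25 collagen genes compared, 16, the marker *Col3a1* included, were higher (17 without KN1) and 1 lower, with a median log2 difference of 3.85, and collagen genes took 1.48% of XN4 reads against 0.0543% to 0.0806% in the other lines. Among the fibril-forming collagens, beside *Col3a1*, *Col5a1* had 512 RPM in XN4, against 24.3 in CN4, 12.2 in KN1, and 24.0 in XN1. *Col5a2* had 157 RPM in XN4, against 6.27 in CN4, 0.207 in XN1, and 0.399 in KN1. Type VI collagen forms beaded filaments around cells. Of its chains, *Col6a1* had 2181 RPM in XN4, against 10.1 in CN4, 2.07 in KN1, and 37.5 in XN1. *Col6a2* had 1722 RPM in XN4, against 7.27 in CN4 and 15.9 in XN1 (not listed in KN1). *Col6a3* had 428 RPM in XN4, against 8.71 in CN4, 0.472 in KN1, and 0.778 in XN1. For each of these 5 chains, XN4 was above all other lines that listed it, with XN1 or CN4 next among them. *Col6a1* was found in 96.6% of XN4 cells and in 10.2% of XN1 cells, the next highest share. The network-forming basement membrane collagens were also higher, as *Col4a1* had 1270.2 RPM in XN4, against 88.0 in CN4, 94.2 in XN1, and 21.2 in KN1. *Col4a2* had 572 RPM in XN4, against 29.9 in CN4, 48 in KN1, and 41.6 in XN1. *Col15a1*, of the zone around basement membranes, had 542 RPM in XN4, against 5.14 in CN4, 1.5 in XN1, and 0.653 in KN1, with a ratio of 106. *Col18a1*, the source of endostatin, had 386 RPM in XN4, against 38.7 in CN4, 4.24 in KN1, and 51.0 in XN1. The remaining higher members were *Col1a1*, *Col6a6*, *Col14a1*, *Col23a1*, *Col26a1*, and *Col28a1*, with ratios from 6.54 to 41.4.

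The lower member was *Col9a3*, a chain of the cartilage type IX collagen, with 1.87 RPM in XN4, against 108 in CN4, 195 in XN1, and 10.1 in KN1. The cartilage gene *Col2a1* was near zero in all lines, at 0.0961 RPM in XN4. The 8 members past 4-fold in neither direction included *Col1a2*, *Col12a1*, and *Col4a5*. *Col4a5* had 86.5 RPM in XN4, against 37.6 in CN4, 72.1 in KN1, and 73.2 in XN1.

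**Figure D3:**
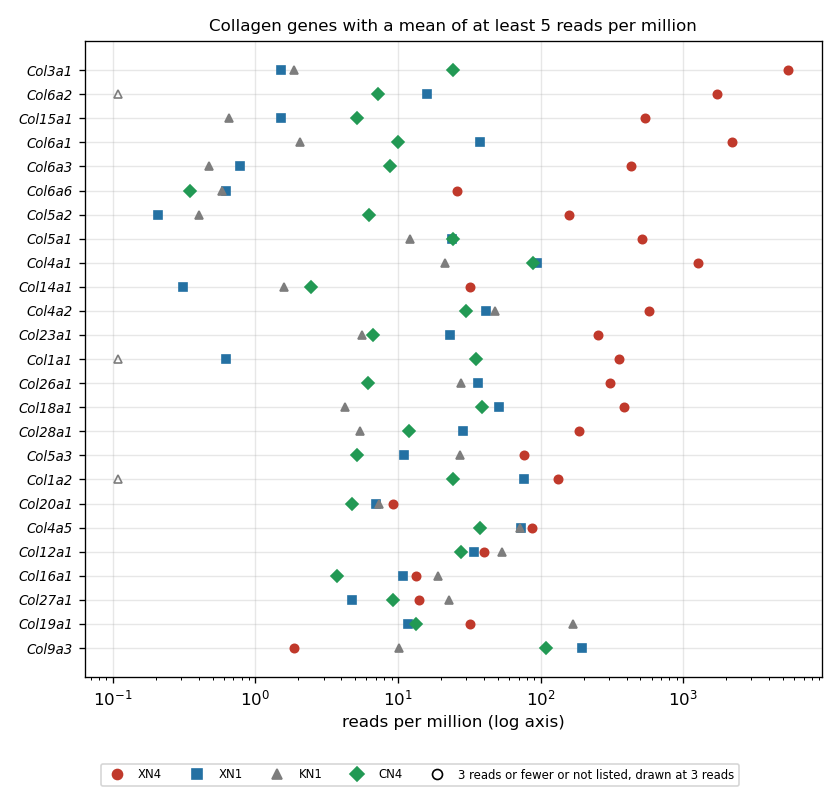
RPM (log axis) in each line of the 25 collagen genes compared, ordered by the ratio of XN4 to the highest other line, with open symbols for 3 reads or fewer or a gene not listed, drawn at 3 reads. From *Col3a1* at the top to *Col28a1*, 16 genes are at least 4-fold higher in XN4 (red) than in every other line, and *Col9a3* at the bottom is at least 4-fold lower.

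Enzymes that process collagen were counted next. Of 15, 3 were higher (4 without KN1) and 0 lower, with a median log2 difference of 0.98. *Loxl2*, a lysyl oxidase that crosslinks collagen, had 777 RPM in XN4, against 23.2 in CN4, 19.5 in XN1, and 5.04 in KN1. *Lox* had 68.3 RPM in XN4, against 1.35 in CN4 and 0.519 in XN1 (not listed in KN1). *P4ha2*, a prolyl hydroxylase subunit, had 57.8 RPM in XN4, against 0.566 in CN4 and 0.467 in XN1 (not listed in KN1). The collagen chaperone *Serpinh1*, in contrast, had 1119.6 RPM in XN4, against 566 in CN4, 97.7 in KN1, and 1259.5 in XN1. *Plod2*, a lysyl hydroxylase, had 184 RPM in XN4, against 193 in CN4, 169.7 in XN1, and 71.6 in KN1, so that XN4 did not stand out. Of 20 other matrix genes, 11 were higher (12 without KN1) and 1 lower, with a median log2 difference of 3.41. *Nid1*, the basement membrane linker nidogen, had 2111 RPM in XN4, against 144 in CN4, 4.86 in KN1, and 134 in XN1. *Ogn*, the proteoglycan osteoglycin, had 1126 RPM in XN4, against 2.05 in CN4, 6.43 in XN1, and 3.30 in KN1, with a ratio of 175. *Lama2*, the laminin chain of muscle and nerve sheaths, had 391 RPM in XN4, against 1.09 in CN4, 3.92 in KN1, and 1.35 in XN1. *Fn1*, the gene of fibronectin, had 437 RPM in XN4, against 44.7 in CN4, 87.0 in XN1, and 14.8 in KN1. *Thbs1*, of thrombospondin 1, had 381 RPM in XN4, against 6.27 in CN4, 4.50 in KN1, and 7.67 in XN1. *Spp1*, of osteopontin, had 246 RPM in XN4, against 11.4 in CN4 and 3.58 in XN1 (not listed in KN1), although it was found in only 16.4% of XN4 cells. The lower member was *Tnc*, the tenascin of neural progenitor niches, with 29.4 RPM in XN4, against 709 in CN4, 2203 in KN1, and 535 in XN1. *Sparc*, a collagen-binding glycoprotein, was among the 10 genes with the most reads in XN4 but had 3370.0 RPM in XN4, against 722 in CN4, 2273 in XN1, and 391 in KN1, and was not past 4-fold.

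Of 12 matrix-degrading enzymes and their inhibitors, 5 were higher and 0 lower, with a median log2 difference of 2.15. *Mmp2*, the gelatinase A gene, had 1374 RPM in XN4, against 36.1 in CN4, 20.5 in KN1, and 164 in XN1, and was found in 89.3% of XN4 cells. *Mmp9*, gelatinase B, had 28.6 RPM in XN4, against 0.348 in CN4 and 0.259 in XN1 (not listed in KN1), but was found in 7.21%. *Plau*, the urokinase gene, had 148 RPM in XN4, against 3.66 in CN4, 2.03 in KN1, and 1.66 in XN1. *Timp2*, an inhibitor of these proteases, had 258 RPM in XN4, against 162 in CN4, 217 in XN1, and 52.9 in KN1. *Serpine2*, a protease inhibitor known from glia, had 946 RPM in XN4, against 2665 in CN4, 986 in KN1, and 4217 in XN1. Both were past 4-fold in neither direction, and of *Serpine2* XN4 had the lowest RPM.

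Of 14 chemokine and complement genes, 7 were higher and 0 lower, with a median log2 difference of 6.35. Among the higher members, *Cxcl12*, *Ccl7*, and *Serping1* reached the limit of 5 RPM only through XN4, which partly sets this count. *Cxcl12*, the ligand of CXCR4, had 246 RPM in XN4, against 2.48 in CN4 and 0.363 in XN1 (not listed in KN1). *Ccl7* had 332 RPM in XN4, against 0.871 in CN4 and 9.44 in XN1 (not listed in KN1). *C1s1*, a protease of the first complement component, had 192 RPM in XN4, against 0.653 in CN4 and 16.8 in XN1 (not listed in KN1). *Serping1*, its inhibitor, had 77.6 RPM in XN4, against 1.13 in CN4, 0.834 in KN1, and 8.25 in XN1. XN1, the other XAV939 line, was next to XN4 for several of these genes. *Ccl2* had 614 RPM in XN4, against 7.32 in CN4, 165 in XN1, and 14.5 in KN1. *Cxcl1* had 227 RPM in XN4, against 6.23 in CN4 and 175 in XN1 (not listed in KN1). *Il33*, an alarmin stored in the nucleus, had 364 RPM in XN4, against 60.8 in CN4, 164 in XN1, and 3.19 in KN1, so that none of the 3 was past 4-fold over XN1. Of 13 contractile and actin-related genes, 7 were higher and 0 lower, with a median log2 difference of 2.52. *S100a6*, a calcium-binding protein, had 339.6 RPM in XN4, against 7.32 in CN4, 1.23 in KN1, and 3.73 in XN1. *Anxa2*, the membrane-binding annexin 2, had 558 RPM in XN4, against 28.1 in CN4, 66.9 in XN1, and 18.9 in KN1. *Tpm1*, of tropomyosin 1, had 725 RPM in XN4, against 127 in CN4, 142 in KN1, and 112 in XN1. *Vim*, of the intermediate filament vimentin that neural progenitors and mesenchyme share, had 1323 RPM in XN4, against 2264 in CN4, 1667 in XN1, and 487 in KN1, and XN4 lay within the range of the others.

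Of 18 genes of growth factors and their receptors, 4 were higher and 1 lower, with a median log2 difference of -0.02. *Fgf7*, a growth factor for epithelia made by mesenchyme, had 62.2 RPM in XN4, against 0.523 in CN4 and 0.415 in XN1 (not listed in KN1). *Fgf10* had 34.2 RPM in XN4, against 0.697 in CN4, 1.56 in XN1, and 0.689 in KN1. *Osmr*, the oncostatin M receptor, had 265 RPM in XN4, against 4.09 in CN4 and 14.6 in XN1 (not listed in KN1). *Tgfbr3*, the coreceptor betaglycan, had 316 RPM in XN4, against 7.10 in CN4, 19 in XN1, and 25.3 in KN1. *Pdgfc* was lower, with 0.577 RPM in XN4, against 13.5 in CN4, 26.6 in KN1, and 10.2 in XN1. The receptors for the 2 growth factors of the medium differed less, as *Egfr* had 85.6 RPM in XN4, against 146 in CN4, 142 in XN1, and 520.3 in KN1. *Fgfr1* had 237 RPM in XN4, against 177 in CN4, 233 in KN1, and 217 in XN1. Of 12 Wnt target and antagonist genes, 1 was higher and 2 lower, with a median log2 difference of -1.65. *Axin2*, a target of Wnt signaling that also limits it, had 3.0 RPM in XN4, against 94.9 in CN4, 20.9 in XN1, and 17.1 in KN1. *Tnfrsf19* had 7.11 RPM in XN4, against 38.4 in CN4, 32.4 in KN1, and 41.1 in XN1. *Sfrp1*, a secreted Wnt antagonist, was higher, with 121 RPM in XN4, against 12.5 in CN4, 0.830 in XN1, and 23.3 in KN1. *Nkd1*, a further Wnt target, had 3.44 RPM in XN4, against 47.5 in CN4, 14.5 in KN1, and 11.7 in XN1 and was lowest in XN4, but not past 4-fold.

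Adhesion genes were lower more often than higher, with 6 lower and 1 higher of 14, and 7 lower without KN1. The median log2 difference was -1.03. *Cdh2*, of N-cadherin, had 19 RPM in XN4, against 444 in CN4, 254 in XN1, and 614 in KN1. *Cdh4*, of R-cadherin, had 0.889 RPM in XN4, against 268 in CN4, 545 in KN1, and 273 in XN1. *Ncam1*, of the neural cell adhesion molecule, had 11.8 RPM in XN4, against 636 in CN4, 405 in XN1, and 537 in KN1. *Chl1*, a relative of L1, had 1.01 RPM in XN4, against 476 in CN4, 37.1 in KN1, and 157 in XN1. *Alcam*, an adhesion molecule of the immunoglobulin family, was the higher member, with 367 RPM in XN4, against 24.1 in CN4, 2.39 in XN1, and 10.1 in KN1. *Cdh11*, the cadherin of mesenchyme, had 420.2 RPM in XN4, against 117 in CN4, 5.44 in KN1, and 1.40 in XN1, and was high in XN4 but not past 4-fold over CN4.

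Of 21 cell cycle genes, 0 were higher and 0 lower in XN4, with a median log2 difference of -0.28. Over all genes compared, 3.76% were higher and 4.98% lower, so that few calls would be near those shares in a list of this length. The cell cycle genes took 0.228% of XN4 reads, against 0.522% in CN4, 0.287% in KN1, and 0.255% in XN1. *Mki67*, made by dividing cells, had 290.1 RPM in XN4, against 519.8 in CN4, 296 in XN1, and 593 in KN1. *Pcna*, of DNA replication, had 110.0 RPM in XN4, against 409 in CN4, 56.5 in KN1, and 158 in XN1. Of 14 genes of D cyclins, CDK inhibitors, and p53 targets, 1 was lower and 0 higher, with a median log2 difference of 0.72. The lower one was *Ccnd2*, of cyclin D2, with 179 RPM in XN4, against 1998 in CN4, 1366 in XN1, and 1523 in KN1. *Ccnd1* had 220.3 RPM in XN4, against 1343 in CN4, 279 in KN1, and 2497 in XN1 and was not past 4-fold below KN1, so that 2 of the 14 were lower without KN1, although it was found in 26.7% of XN4 and 95.9% of XN1 cells. *Ccnd3*, of cyclin D3, had 243 RPM in XN4, against 114 in CN4, 86.5 in XN1, and 65.3 in KN1, highest in XN4 but not past 4-fold. None of 10 housekeeping genes was past 4-fold, with a median log2 difference of -0.23. *Actb* had 4725 RPM in XN4, against 6553 in CN4, 1881 in KN1, and 6392 in XN1.

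Imprinted genes, which are expressed from the allele of a single parent, were higher in 7 of 14 and lower in 0, with a median log2 difference of 2.58. Of the higher members, *H19*, *Dlk1*, *Meg3*, and *Zim1* reached the limit of 5 RPM only through XN4, so that this count is partly set by that limit. The noncoding *H19* had 258 RPM in XN4, against 4.66 in CN4 and 0 reads in XN1 (not listed in KN1). The zinc finger gene *Plagl1* had 1753 RPM in XN4, against 24.3 in CN4, 8.16 in KN1, and 134 in XN1. *Dlk1*, a membrane protein of progenitors, had 653 RPM in XN4, against 5.05 in CN4, 8.5 in XN1, and 0.653 in KN1. The noncoding *Meg3*, of the same imprinted domain, had 200.3 RPM in XN4, against 3.01 in CN4 and 10.9 in XN1 (not listed in KN1). *Zim1* had 259 RPM in XN4, against 1.22 in CN4, 1.24 in XN1, and 12.0 in KN1. Its neighbor *Peg3* had 812 RPM in XN4, against 155 in CN4, 156 in KN1, and 157 in XN1. Not all members moved this way, as *Nnat* had 0.312 RPM in XN4, against 643 in CN4, 0.778 in XN1, and 19.8 in KN1. *Mest* had 500.2 RPM in XN4, against 262 in CN4, 465 in KN1, and 169 in XN1. The noncoding RNA *Xist*, which coats the inactive X chromosome, had 1833 RPM in XN4, against 1590.4 in CN4, 9.23 in XN1, and 2555 in KN1, so that XN4 resembled KN1 and CN4 and not XN1, and was past 4-fold in neither direction. The Y-linked *Ddx3y* had 1.61 RPM in XN4, against 1.35 in CN4, 1.23 in KN1, and 2.07 in XN1, *Uty* was at 0.433 RPM, and *Kdm5d* at 0.168 RPM in XN4.

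Transcription factors that mark regions of the embryo were compared by origin. Of 6 factors of craniofacial mesenchyme, 5 were higher and 0 lower, with a median log2 difference of 5.49. *Six2*, *Twist1*, and *Twist2* reached the limit of 5 RPM only through XN4, so that this count is partly set by that limit. *Prrx1*, a homeobox factor of limb and face mesenchyme, had 828 RPM in XN4, against 99.7 in CN4, 13.2 in XN1, and 5.19 in KN1, and was found in 85.9% of XN4 and 34.9% of CN4 cells. *Six2* had 59.9 RPM in XN4, against 1 read in CN4 and 0.882 RPM in XN1 (not listed in KN1). *Twist1*, a bHLH factor of mesoderm and neural crest, had 53.5 RPM in XN4, against 1.66 in CN4 and 6.90 in XN1 (not listed in KN1). *Twist2* had 34.6 RPM in XN4, against 1.74 in CN4, 3.05 in KN1, and 1.66 in XN1. Other factors of the face were nearly absent, as *Msx1* and *Msx2* were at 1.39 RPM and 2 reads in XN4, and *Alx1*, *Dlx1*, *Dlx2*, and *Dlx5* were not listed in any line. Of 4 somite factors, *Meox1* and *Meox2* were higher and 0 lower (1 lower without KN1). *Meox2* had 315 RPM in XN4, against 1.26 in CN4, 3.99 in XN1, and 0.907 in KN1, with a median log2 difference over the list of 4.66, and of 1.35 over the 3 members without the marker *Meox1*. *Pax1*, *Pax3*, and *Tbx6*, which also act in somites, were at 0.360 RPM, 1.30 RPM, and 1.25 RPM. Of 5 meningeal mesenchyme factors, 1 was higher and 1 lower, with a median log2 difference of 1.94. *Tbx18*, a T-box factor, was higher, with 118 RPM in XN4, against 0.653 in CN4 and 11.2 in XN1 (not listed in KN1). *Ptgds*, the prostaglandin D2 synthase of meninges and glia, was lower, with 0.144 RPM in XN4, against 54.5 in CN4, 55.3 in XN1, and 92.2 in KN1. *Foxc1*, needed for the meninges, had 196 RPM in XN4, against 57.7 in CN4, 6.17 in KN1, and 70.2 in XN1 and was not past 4-fold.

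Of 2 limb factors compared, neither was past 4-fold, with a median log2 difference of -0.83, and *Tbx5*, *Tbx4*, and *Pitx1* were not listed in any line. *Shox2* had 19.2 RPM in XN4, against 2 reads in CN4 and 2 reads in XN1 (not listed in KN1) and was too low on average to be compared. The heart and visceral mesoderm list had 1 member to compare, *Osr1*, which was higher with 54.5 RPM in XN4, against 0.523 in CN4 and 0 reads in XN1 (not listed in KN1), while *Gata4* and *Gata6* were at 0.0961 RPM and 1.18 RPM and *Nkx2-5* was not listed in any line. Of 21 *Hox* genes, which give position along the trunk, 5 were lower and 0 higher, with a median log2 difference of -7.38, and 17 of the 27 listed *Hox* genes had 3 reads or fewer in XN4. *Hoxa3* had 0.144 RPM in XN4, against 19.7 in CN4, 31.0 in XN1, and 8.31 in KN1. *Hoxa4* had 3 reads in XN4, against 12.0 RPM in CN4, 7.76 in KN1, and 25.4 in XN1. XN1 was also at 0.259 RPM or less for each *Hoxb* and *Hoxc* gene listed, so that XN4 could not be past 4-fold below every line for these. *Hoxb8*, for example, had 0.0961 RPM in XN4, against 343 in CN4, 2 reads in XN1, and 121 RPM in KN1. The exception in XN4 was *Hoxd8*, with 39.6 RPM in XN4, against 45.2 in CN4, 17.6 in KN1, and 1 read in XN1, found in 17.9% of XN4 cells. Of 10 brain region factors, 2 were lower (3 without KN1) and 0 higher, with a median log2 difference of -1.21. *En1*, of the midbrain and hindbrain, had 2.45 RPM in XN4, against 82.7 in CN4, 75.5 in XN1, and 14.5 in KN1. *Gbx2*, of the hindbrain, had 0 reads in XN4, against 50.8 RPM in CN4, 5.88 in KN1, and 5.29 in XN1. *Irx3* had 95.1 RPM in XN4, against 29.0 in CN4, 62.3 in XN1, and 7.26 in KN1. *Irx5* had 63.3 RPM in XN4, against 40.1 in CN4, 16.3 in KN1, and 54.9 in XN1, highest in XN4 but not past 4-fold.

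**Figure D4:**
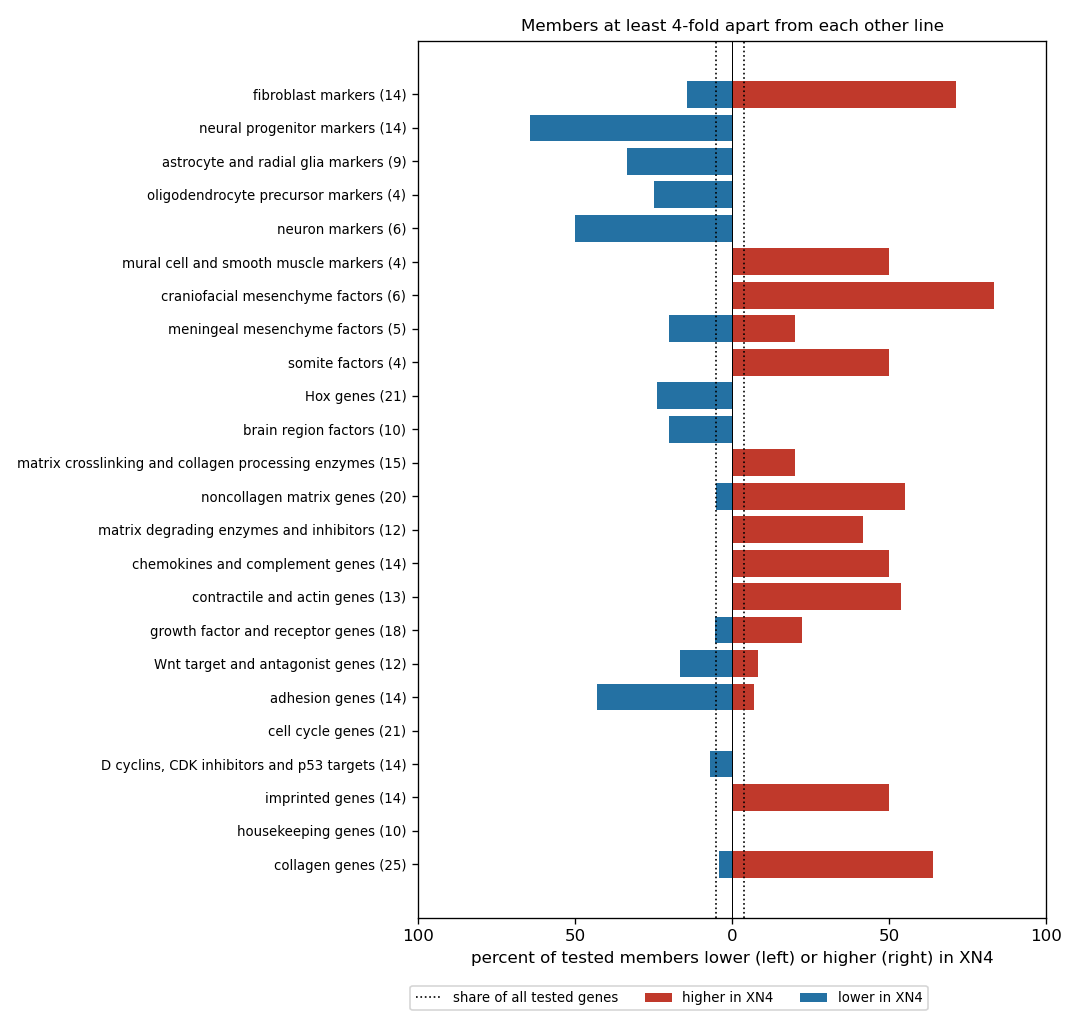
Share of the members of each gene list that were at least 4-fold higher (red, to the right) or lower (blue, to the left) in XN4 than in every other line, for lists with at least 4 members compared (their number is in parentheses). Dotted lines mark the shares over all genes compared, 3.76% higher and 4.98% lower, and bars start at 0.

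In single cells, XN4 cells mostly carried several markers at once and no read of the lower genes. The 20 higher and 15 lower genes were picked by their ratios in these same cells. The 5 markers were chosen with results of these data known, and *Ccl11* is also among the 20 genes. The counts per cell of all these genes thus largely follow from that choice. Of 3927 XN4 cells, 27 had no read of any of the 5 markers, 3372 had at least 3 of them, and 904 had all 5. At least 3 markers were found in 2 XN1, 0 KN1, and 8 CN4 cells. In KN1, *Meox1* and *Ccl11* were not listed, so that only *Col3a1*, *Dcn*, and *Pcolce* could be counted there. After thinning, 2726 of 3462 XN4 cells, or 78.7%, had at least 3 markers, and 14 had none. Of the 15 lower genes, 3869 XN4 cells had no read, 58 had at least 1, and 0 had at least 3. In the other lines, the median cell had reads of 10 (CN4), 8 (XN1), and 4 (KN1) of these 15 genes. Of the 20 higher genes, the median XN4 cell had 8, and 13 XN4 cells had none. The 20 genes together took 0.588% of the reads of the median XN4 cell, and 0.125% to 1.59% between the 5th and the 95th percentile of cells.

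**Figure D5:**
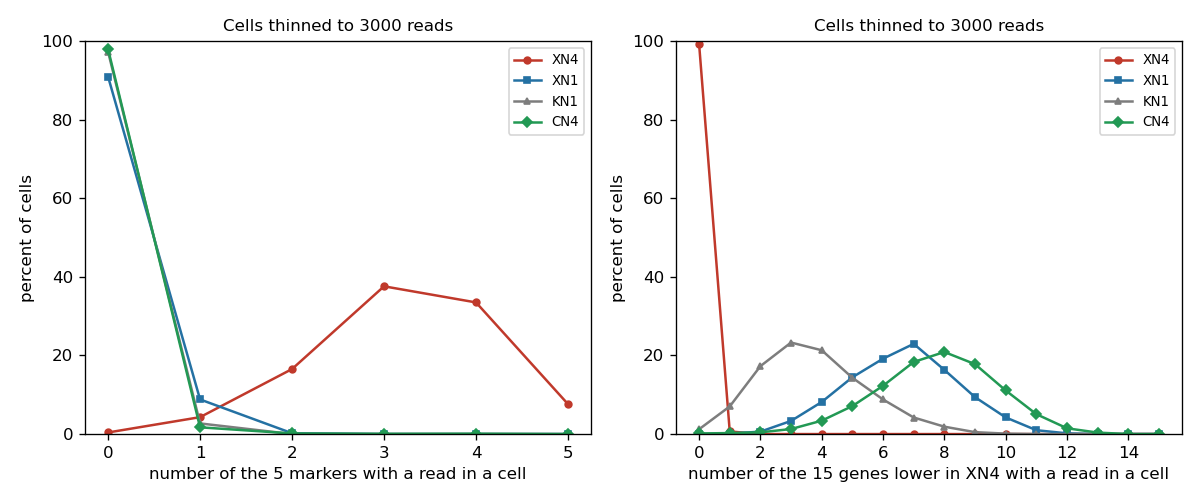
Percent of the cells of each line, thinned to 3000 reads, that had reads of a given number of the 5 markers (left) or of the 15 genes lower in XN4 (right). XN4 cells (red) peak at 3 of the 5 markers and lie at 0 of the 15 lower genes, and the other lines lie at 0 markers and spread over several lower genes. The 15 genes were picked by their ratios in these same cells, and the 5 markers with results of these data known. *Meox1* and *Ccl11* were not listed in KN1 and could not be counted there.

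Some genes known from neural progenitors were also read in XN4 cells, and the share of these cells with *Col3a1* was counted. Of the 22 XN4 cells with *Sox2*, 20 also had *Col3a1*. Of 333 cells with *Nes*, 317 also had it, or 95.2% (92.3% to 97.2%), and of 870 cells with *Slc1a3*, 856, or 98.4% (97.3% to 99.1%). Of 1769 cells with *Sox9*, 1749 had *Col3a1*, and of 1429 with *Irx3*, 1422. The share of *Col3a1* in all XN4 cells was 97.8%. Doublets were not called, and whether cells caught together contributed was not tested.

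Dividing cells carried the markers too. Of the XN4 cells thinned to 3000 reads, 1020 had a read of *Mki67* or *Top2a* and 2442 had none. *Col3a1* was found in 98.1% of the former (97.1% to 98.9%) and 97.1% of the latter (96.3% to 97.7%), and *Pcolce* in 74.6% and 73.0%. Some genes were found less often in cells with *Mki67* or *Top2a*, as *Dcn* was found in 76.3% (73.5% to 78.9%) against 84.3% (82.8% to 85.7%), and *Cxcl12* in 22.5% (19.9% to 25.1%) against 31.7% (29.9% to 33.6%). *Spp1* was found in 7.84% (6.27% to 9.67%) against 14.3% (12.9% to 15.7%). *Meox1* had the opposite order, with 22.8% (20.3% to 25.5%) against 18.9% (17.4% to 20.5%). These intervals did not overlap for *Dcn*, *Cxcl12*, and *Spp1*, and overlapped slightly for *Meox1*. All are counts of cells within 1 library.

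The cells of XN4 that the normalized table does not hold gave close values. In these 4814 cells of the table of all reads, *Col3a1* was found in 97.7%, *Dcn* in 87.6%, *Pcolce* in 85.6%, *Meox1* in 33.0%, and *Ccl11* in 66.7%. *Sox2* was found in 0.561%, *Olig2* in 0.104%, and *Fabp7* in 0 of them.

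Reads of *Col3a1* in CN4 came from few cells. Of 3448 CN4 cells, 10 had at least 10 *Col3a1* reads each, and together they held 531 of its 554 reads, or 95.8%. All 10 had *Postn*, 8 had *Dcn*, and 8 had *Prrx1*, while *Fabp7* was found in 50% of them against 98.3% of all CN4 cells. None of the 10 shared a barcode with XN4. In the table of all CN4 reads, 58 of 18157 cells had at least 10 *Col3a1* reads, and 1 of these shared a barcode with XN4. XN1 had 1 such cell and KN1 had 0 in the normalized tables. Without these 10 cells, the level of *Col3a1* in CN4 was 1.00 RPM in place of 24.1, so that the ratio of 226 given above rests on them. On the log2 scale, the ratio of XN4 to the highest other line went from 7.82 to 11.53 for *Col3a1* and from 7.83 to 8.84 for *Dcn*. It went from 8.98 to 12.11 for *Apod* and from 9.26 to 11.51 for *Ccl11*. Whether these cells belonged to the CN4 line was not tested. With them left out, 431 genes were higher and 569 lower in XN4.

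The 10 genes with the most reads in XN4 were *Gm42418*, *Malat1*, *Eef1a1*, *Col3a1*, *Actb*, *Ptma*, *Sparc*, *Hsp90ab1*, *Cfl1*, and *Actg1*. Of these, *Col3a1* was the only one past 4-fold. *Gm42418*, a transcript that lies in a ribosomal RNA repeat, had 36434 RPM in XN4, against 8797 in CN4, 15810.1 in XN1, and 21827 in KN1. *Malat1*, a nuclear noncoding RNA, had 14160.5 RPM in XN4, against 3278 in CN4, 32026 in KN1, and 5294 in XN1.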

How the data were processed

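Dissociated growing cells of XN4, XN1, KN1, and CN4 were profiled with BD Rhapsody whole transcriptome libraries, 1 per line. The authors' tables of all reads, which hold raw read counts per gene and cell and were used here for XN4, XN1, and CN4, came from version 1.12.1 of the BD Rhapsody pipeline with GRCm38 and GENCODE M19, with intronic reads counted, per the file headers. The deposited normalized tables of the 4 lines, made with Seurat 4.3.0 per the submitters' notes, hold the natural log of 1 plus reads per 10000 reads of a cell, with mitochondrial and ribosomal protein genes removed. The study chose 4000 cells per line, and the tables hold 3927, 3905, 3975, and 3448. Per its methods, they were drawn at random, and no cell was filtered further here.

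Whole reads were recovered from 100% of the normalized values (tolerance 0.01 read), which are reads and not unique molecules. Reads were summed over the cells of a line and given per 1000000 reads (RPM). Values under 3 reads, and genes not listed in KN1, were set to 3 reads. Genes with a mean of at least 5 RPM over the 4 lines were compared, and those at least 4-fold above the highest or below the lowest other line were called. For XN4, 33 genes at the end of the alphabet that its normalized table lacks (0.163% of reads) were read from the table of all reads. Raw KN1 counts were not analysed here. Intervals (95%) are exact Poisson for levels and Clopper-Pearson for shares of cells. With 1 library per line, no test was run. Doublets were neither called nor removed. Columns were assigned to lines by the labels.

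Genes were named by rule: the 5 markers, 20 higher and 15 lower genes found in at least 10% of cells, the 10 genes with the most reads in XN4, and, in each of 32 lists and among collagen genes, the members at both ends or on which the description turns. Some of these genes count in the totals but are not reported here. Members and lists were chosen with earlier results of these data known. Alternatives changed the fold, the filter on low values, the scaling, the depth, the pseudocount, the cells, and the reference lines. Another 2 were chosen after seeing the data: taking unlisted genes as 0, and leaving out CN4 cells with many *Col3a1* reads. Positions are from GENCODE M21 and promoters from RefSeq (GRCm38.p6). Analyses used Python 3.11.15, NumPy 2.4.6, pandas 2.3.3, SciPy 1.17.1, and matplotlib 3.10.9.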

Additional observations from a re-analysis of the deposited data

How the results depend on the processing

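No paired analysis was possible because each line had 1 library. The counts of 430 higher and 569 lower genes depended on the limits chosen and on the pseudocount. At 2-fold, 833 genes were higher and 916 lower in XN4, with 1834 and 1667 against XN1, 2706 and 2381 against KN1, and 1786 and 1822 against CN4. At 8-fold, 271 were higher and 373 lower, with 435 higher against XN1, 672 higher and 770 lower against KN1, and 452 higher against CN4. With a mean of at least 1 RPM, 1188 were higher against XN1, 1742 higher and 1813 lower against KN1, and 1274 higher against CN4. With at least 20 RPM, 239 were higher and 375 lower, with 407 and 539 against XN1, 685 and 766 against KN1, and 469 and 566 against CN4. With 5 RPM added to all values, 234 genes were lower, with 521 lower against XN1 and 548 against CN4. Each of these settings by its construction takes in more or fewer genes. The balance of higher to lower genes changed with them, from fewer higher than lower to 332 higher and 234 lower with 5 RPM added (576 and 548 against CN4), and at 2-fold to more higher than lower against XN1 and KN1. The ratios of the 5 markers and of the 20 higher and 15 lower genes kept their direction and stayed past 4-fold in every setting run. Their size depended on the setting. With 5 RPM added, 20 of 24 ratios to the highest other line and 15 of 15 to the lowest moved by at least 1 on the log2 scale, to between 3.50 and 6.32 and between -6.37 and -3.22 (*Dpep1* from 10.18 to 5.17, *Fabp7* from -12.39 to -6.29). After thinning, 2 of 24 and 10 of 15 moved, the lower genes to between -10.50 and -7.17 (*Pipox* from -9.18 to -7.17). There, 3 reads are a larger share of fewer reads, but what moved each gene was not tested. Without XN1 as a reference, 3 of 24 and 3 of 15 moved (*Meox1* from 5.32 to 9.13), without KN1 2 and 4, and without CN4 6 and 1. Of 32 shares of cells, 26 moved outside their interval when 2 reads were asked for and 22 after thinning. Every other setting kept both counts within 1.5 times, from 428 to 633 higher genes (332 with 5 RPM added) and from 560 to 711 lower genes. Of the 430 and 569 genes, 415 and 534 were also called after thinning to 3000 reads, and 417 and 541 when the cells outside the normalized tables were added. No replicate library exists in these data, so the spread between libraries of 1 line is unknown, and derivation, supplier of XAV939, and library cannot be told apart from line. Depth limits the genes with few reads, and a gene not listed in KN1 had no value there.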
